A study of Mus musculus with 12 samples.

Results

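Glycolysis and the hypoxia response were followed through 37 genes of the 23362 genes counted in every library. They are glycolytic enzymes, transporters of glucose and lactate, kinases that set the flux through glycolysis, and HIF-1 alpha with its hydroxylases and targets, taken by symbol from the count tables. The list was drawn up because Slc2a1, Pdk1 and Bnip3 were higher in the Xbp1-deficient (KO) than in the wild type (WT) libraries of GATA2-transduced cells and not of fresh progenitors. Both genotype comparisons and their difference therefore chose the genes, and what follows from them for these genes is a description without p-values. A comparison of wild type cells between the 2 stages was not among them and was tested, except for Slc2a1, Pdk1 and Bnip3.

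The study profiled polyadenylated RNA at a pair of stages of eosinophil development in C57BL/6 mice, with 3 libraries in each of 4 groups. GATA2-GMP KO and GATA2-GMP WT were granulocyte-macrophage progenitors (GMP) of Xbp1-deficient and wild type mice that had been sorted, transduced with GATA2, sorted again and kept in culture for 48 h. GMP KO and GMP WT were progenitors of the same genotypes, sorted straight into Trizol with no culture. Libraries of both stages were finished with a TruSeq kit, which for GATA2-GMP followed an amplification with SMARTer Ultra Low Input, so that transduction, culture and library kit all change with the stage and cannot be told apart. Neither the Xbp1 allele, nor what deletes it, nor the animals behind each replicate are named in the labels, so p-values measure the spread between these libraries, which may be technical.

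Glycolysis splits glucose into pyruvate and yields ATP without oxygen, and lactate dehydrogenase then turns pyruvate into lactate, which leaves the cell through monocarboxylate transporters. HIF-1 is a transcription factor whose alpha subunit is marked for destruction by prolyl hydroxylases when oxygen is present. When oxygen is low the subunit persists, binds sites with the core ACGTG or GCGTG and switches on glucose transporters, most glycolytic enzymes, the hydroxylases themselves and mitophagy receptors. Neutrophils are known for a heavy use of glycolysis.

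Library totals ran from 8219366 to 33640911 counts. Levels are given as CPM, read counts scaled to a common library size, and 1 CPM stood for 11.2 to 43.5 reads. Reads with more than 1 alignment were 40.3 to 54.96% of the records and were counted to no gene. The labelled cells could be checked on Gata2, the transduced factor, which had 273, 235 and 293 CPM in GATA2-GMP KO and 282, 370 and 223 in GATA2-GMP WT, against 24.8, 28.3 and 29.1 CPM in GMP KO and 24.0, 22.5 and 39.7 CPM in GMP WT. The progenitor marker Cd34 lay between 9.21 and 17.7 CPM in the 6 GATA2-GMP libraries and between 290.0 and 425 CPM in the 6 GMP libraries. Xbp1 itself had 99.8, 121 and 128 CPM in GATA2-GMP KO against 381, 269 and 197 CPM in the GATA2-GMP WT libraries. In GMP KO it had 89.8, 55.9 and 56.8 CPM, against 131, 133 and 153 CPM in GMP WT. Its libraries did not overlap between genotypes at either stage, while the log2 fold changes of -1.28 (SE 0.27, edgeR's adjusted p = 0.0959) and -1.06 (SE 0.21, adjusted p = 0.0919) did not pass the threshold of 0.05.

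The promoters of the genes that were called higher in GATA2-GMP KO are shown for Slc2a1, Pdk1, Bnip3, Ankrd37 and Ethe1, since the HIF core can be looked for in them. Each sequence runs 5′ to 3′ on the gene's strand, from 250 bases before to 50 bases after a start site in RefSeq, on build GRCm38.p6. Capitals mark ACGTG or GCGTG on either strand, so that CACGT and CACGC in capitals are the reverse strand; CACGTG counts once on each strand.
Slc2a1, chr4:119108495-119108794, plus strand: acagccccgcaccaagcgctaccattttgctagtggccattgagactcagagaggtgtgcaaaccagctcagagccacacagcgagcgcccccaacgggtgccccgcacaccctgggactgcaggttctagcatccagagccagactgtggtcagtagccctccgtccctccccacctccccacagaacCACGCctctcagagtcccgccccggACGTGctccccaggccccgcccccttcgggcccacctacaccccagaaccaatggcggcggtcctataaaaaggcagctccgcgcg
Pdk1, chr2:71872974-71873273, plus strand: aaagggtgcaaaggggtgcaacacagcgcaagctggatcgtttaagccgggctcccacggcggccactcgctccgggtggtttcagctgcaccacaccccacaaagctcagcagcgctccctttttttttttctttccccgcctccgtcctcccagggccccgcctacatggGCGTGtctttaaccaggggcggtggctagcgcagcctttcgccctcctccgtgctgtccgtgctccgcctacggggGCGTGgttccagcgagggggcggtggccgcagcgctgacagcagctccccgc
Bnip3, chr7:138909457-138909756, minus strand: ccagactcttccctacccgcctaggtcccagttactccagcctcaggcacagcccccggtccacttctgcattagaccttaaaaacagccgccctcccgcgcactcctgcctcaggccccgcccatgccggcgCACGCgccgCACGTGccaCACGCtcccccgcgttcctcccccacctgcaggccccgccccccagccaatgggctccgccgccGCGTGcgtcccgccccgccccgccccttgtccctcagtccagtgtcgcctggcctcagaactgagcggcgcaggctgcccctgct
Ankrd37, chr8:45999801-46000100, minus strand: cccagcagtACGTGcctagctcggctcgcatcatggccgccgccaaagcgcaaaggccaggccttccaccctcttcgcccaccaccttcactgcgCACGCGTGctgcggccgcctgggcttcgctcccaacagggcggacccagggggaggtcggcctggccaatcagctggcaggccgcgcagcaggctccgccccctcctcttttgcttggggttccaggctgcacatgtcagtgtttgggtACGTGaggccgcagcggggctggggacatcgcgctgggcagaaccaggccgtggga
Ethe1, chr7:24593658-24593957, plus strand: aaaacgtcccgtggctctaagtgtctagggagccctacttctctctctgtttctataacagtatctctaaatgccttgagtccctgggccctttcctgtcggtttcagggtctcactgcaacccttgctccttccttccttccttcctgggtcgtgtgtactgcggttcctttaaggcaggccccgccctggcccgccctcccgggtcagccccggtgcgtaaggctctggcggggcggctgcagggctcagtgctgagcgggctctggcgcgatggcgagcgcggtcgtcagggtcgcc

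Slc2a1 held 2 matches in this window, Pdk1 2, Bnip3 5 and Ankrd37 4, and the Ethe1 window held none. Of the 5 Bnip3 matches, 4 began between 117 and 99 bases before the start. A second RefSeq window of Pdk1 and a second one of Ethe1 held no match. Of the 37 genes, 33 were in the promoter table and 29 of those had a match in at least 1 window. Counted by window, 38 of 51 windows of these genes (74.5%) held either motif, against 43.8% of all 32851 RefSeq promoters. ACGTG was in 52.9% and GCGTG in 52.9% of the windows of these genes, against 19.6% and 32.4% of all promoters. The list was made of genes held to be HIF targets and of glycolytic enzymes, so a higher share was built into the choice. Some windows of 1 gene also overlap and share a match, as for Aldoa and Eno1, and nothing is read from these shares. A match is a run of letters, not a measured site, and these libraries measured no binding.

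Slc2a1, Pdk1 and Bnip3 are the genes that prompted the list, and their values describe how it was chosen. Slc2a1, at chr4:118781316-118809935 of mm9, encodes the glucose transporter GLUT1. It had 181, 119 and 141 CPM in GATA2-GMP KO, 45.9, 42.9 and 45.8 CPM in GATA2-GMP WT, 28.2, 23.6 and 27.3 CPM in GMP KO and 24.0, 20.9 and 21.9 CPM in GMP WT. The GATA2-GMP KO libraries stood above all 9 others, with a log2 fold change over GATA2-GMP WT of 1.71 (SE 0.23), against 0.22 (SE 0.094) between the GMP genotypes. Pdk1, at chr2:71711281-71741915, encodes a kinase that switches off pyruvate dehydrogenase and so keeps pyruvate out of the citrate cycle. Its levels were 56.4, 32.2 and 43.5 CPM in GATA2-GMP KO, 11.7, 8.34 and 12.2 CPM in GATA2-GMP WT, 141, 140 and 128 CPM in GMP KO and 146, 142 and 138 CPM in GMP WT. Here the GATA2-GMP KO libraries lay above GATA2-GMP WT, by a log2 fold change of 2.04 (SE 0.29), and still far below every GMP library. Bnip3, at chr7:146082519-146101202, encodes a receptor on the outer mitochondrial membrane that draws mitochondria into autophagosomes. Libraries of GATA2-GMP KO had 389, 176 and 759.9 CPM, those of GATA2-GMP WT 51.4, 75.1 and 42.9, those of GMP KO 4.50, 5.24 and 5.11 and those of GMP WT 4.997, 4.15 and 5.95. Its GATA2-GMP KO values were the most spread of the 3 genes, and even the lowest was above all GATA2-GMP WT values, with a log2 fold change of 2.97 (SE 0.50). Near copies elsewhere cover 98.8% of the Bnip3 transcript, and reads with more than 1 alignment were not counted, so its level is uncertain.

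**Figure D1:**
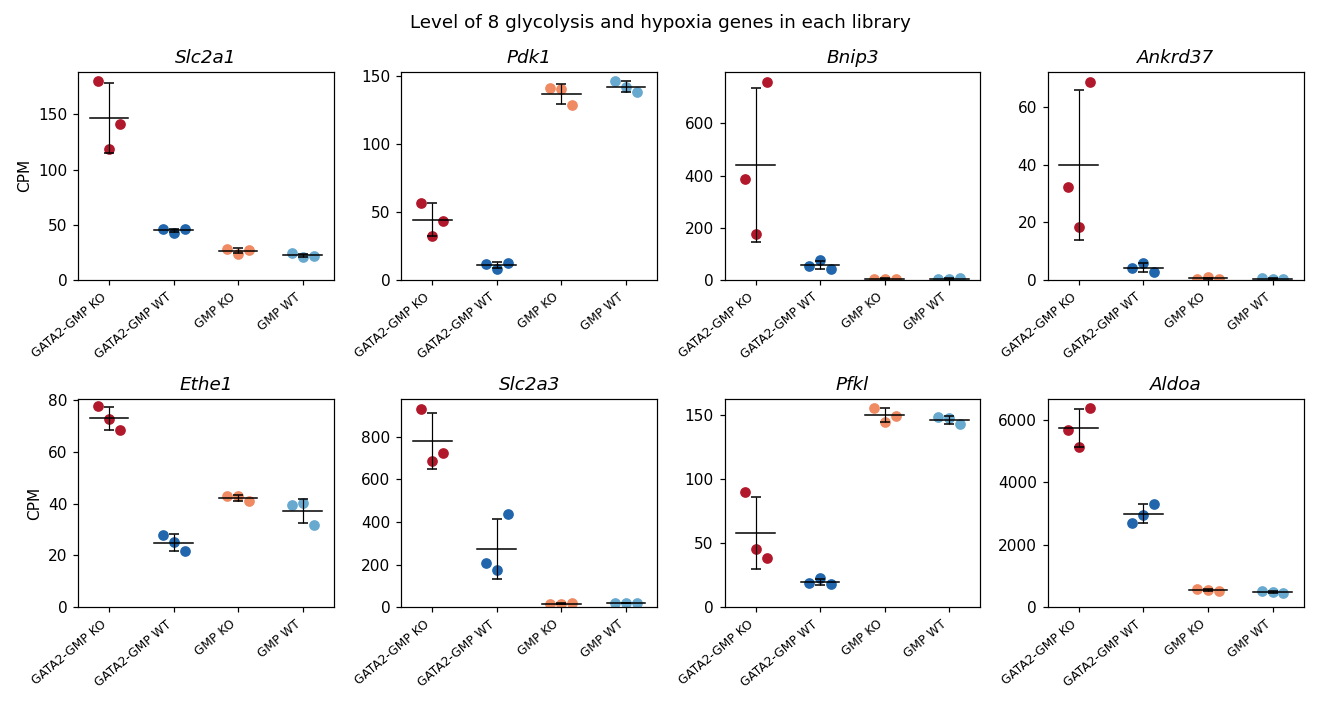
Level of 8 genes in each of the 12 libraries, in CPM on linear axes that start at 0, 1 panel per gene, with 1 point per library, a line at the group mean and bars of 1 SD (n = 3), and the groups from left to right GATA2-GMP KO, GATA2-GMP WT, GMP KO and GMP WT. Slc2a1, Bnip3 and Ankrd37 are highest in GATA2-GMP KO, while Pdk1 is higher in GATA2-GMP KO than in GATA2-GMP WT and below both GMP groups.

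Of the 37 genes, 36 passed the filter on low counts in GATA2-GMP, and Eno2 did not. In edgeR's quasi-likelihood test across all 11699 genes, 5 were called higher in GATA2-GMP KO at an adjusted p of 0.05 (Slc2a1, Pdk1, Bnip3, Ankrd37 and Ethe1) and none was called lower. Over all genes, 0.103% were called higher and 0.274% lower (0.376% in either direction). In 23 genes every GATA2-GMP KO library was above every GATA2-GMP WT library, in none was every one below, and 14 overlapped, Eno2 among these. The same separation was seen in 10.2% of all genes upward and 12.3% downward. The fold change was positive in 32 genes and negative in 4, with a median log2 of 0.83, beside -0.0049 for all genes tested. Since this contrast picked the genes, nothing is read from these shares. The 5 calls depended on single libraries: they were 0 without GATA2-GMP WT 1, without GATA2-GMP WT 2, without GATA2-GMP KO 1 or without GATA2-GMP KO 3, 4 without GATA2-GMP KO 2, and 13 without GATA2-GMP WT 3. The same fits called 8, 28, 0 and 0 genes of all tested, then 20 and 525, against 44 with every library. DESeq2 called 17 and a fit of all 12 libraries together called 20, all of them higher, beside 568 and 1461 genes in all. By DESeq2, 2.23% of all genes were called higher and 2.62% lower.

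**Figure D2:**
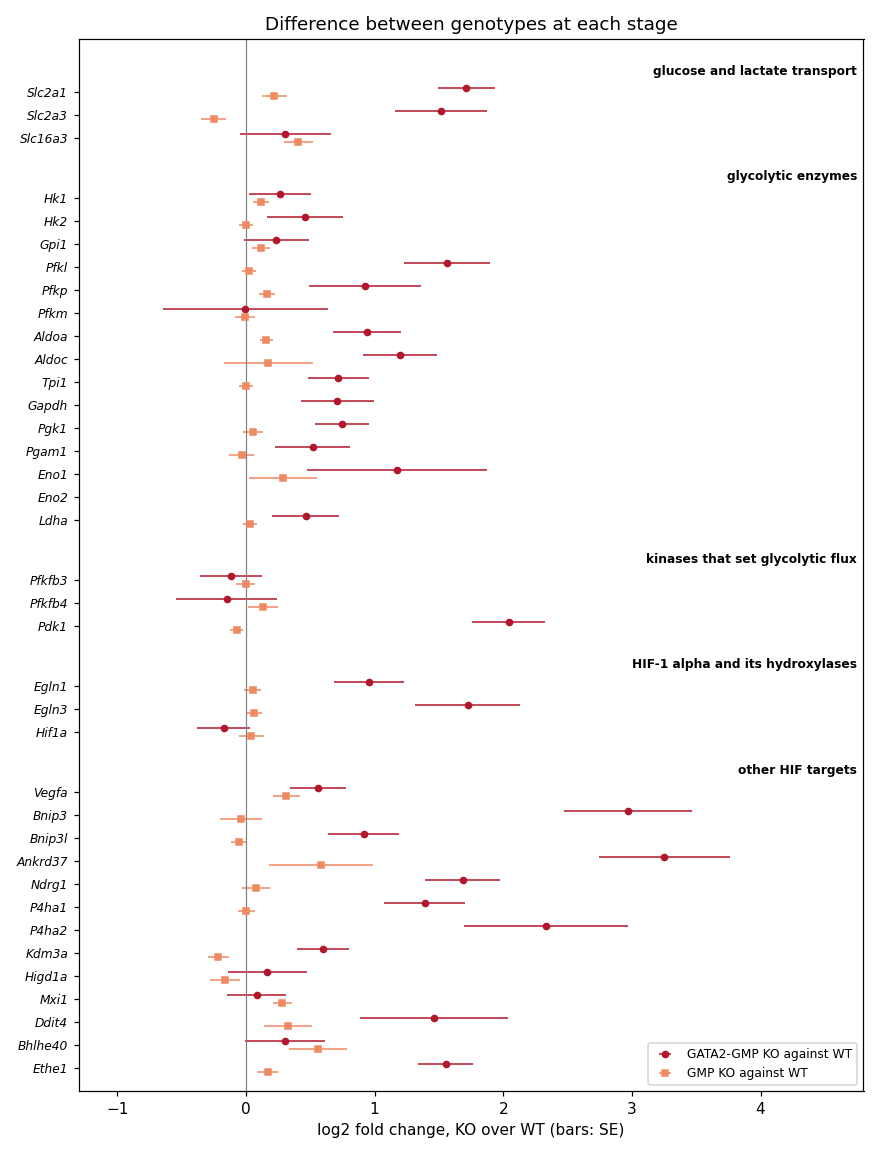
Log2 fold change of KO over WT for each gene, with bars of 1 SE, in GATA2-GMP and in GMP, grouped by role. Most GATA2-GMP values lie to the right of 0, up to 3.25 for Ankrd37, and the GMP values lie between -0.25 and 0.58.

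Among the transporters, Slc2a3 encodes GLUT3, a glucose transporter of high affinity. It had 932, 685 and 725 CPM in GATA2-GMP KO against 208, 175 and 437 CPM in GATA2-GMP WT. Its GMP levels were 15.0, 16.3 and 18.3 CPM in GMP KO against 18.6, 19.5 and 19.6 CPM in GMP WT. KO libraries were thus above WT in GATA2-GMP, with a log2 fold change of 1.52 (SE 0.36), and below WT in GMP, with -0.25 (SE 0.095). GATA2-GMP WT 3 stood apart from its group, and without it the GATA2-GMP value was 2.03. Slc16a3 encodes the lactate exporter MCT4, and its libraries overlapped between the GATA2-GMP genotypes (0.31, SE 0.35). Summed, the 3 transporters took 0.0993, 0.0699 and 0.0676% of all counts in GATA2-GMP KO, against 0.0195, 0.0175 and 0.0378% in GATA2-GMP WT.

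Of the 15 glycolytic enzymes, 14 were tested in GATA2-GMP and none was called by edgeR, although 6 had an unadjusted p under 0.05, all higher in KO, where 6.59% of all genes were so placed upward and 8.31% downward. KO libraries lay above WT in 9: Pfkl, Aldoa, Aldoc, Tpi1, Gapdh, Pgk1, Pgam1, Eno1 and Ldha. The enzymes took 1.02, 0.886 and 0.953% of all counts in GATA2-GMP KO, against 0.471, 0.516 and 0.596% in GATA2-GMP WT, and most of the counted reads were from Aldoa, Ldha and Gpi1. Reads with more than 1 alignment were counted to no gene. These shares can therefore be too low for enzymes with near copies elsewhere, such as Gapdh, Pgk1, Pgam1, Gpi1 and Eno1. Aldoa, the aldolase that cuts the sugar bisphosphate into its triose products, had 5684, 5144 and 6371 CPM in GATA2-GMP KO and 2712, 2955 and 3306 CPM in GATA2-GMP WT, a log2 fold change of 0.94 (SE 0.26). Lactate dehydrogenase A, Ldha, had 2636, 2219 and 3247 CPM in GATA2-GMP KO and 2021, 2062 and 1807 CPM in GATA2-GMP WT, a smaller difference of 0.46 (SE 0.26), with groups that did not overlap. The liver subunit of phosphofructokinase, Pfkl, differed most among the enzymes, with 90.1, 45.4 and 38.2 CPM in GATA2-GMP KO and 18.6, 22.5 and 17.8 CPM in GATA2-GMP WT (1.56, SE 0.34). Log2 fold changes in the middle of the range were 0.72 (SE 0.23) for the triose isomerase Tpi1 and 0.75 (SE 0.21) for Pgk1, a kinase that makes ATP. The entry enzymes overlapped between genotypes: the hexokinases Hk1 (0.27, SE 0.24) and Hk2 (0.46, SE 0.30) and the glucose phosphate isomerase Gpi1 (0.24, SE 0.25). The platelet and muscle subunits of phosphofructokinase overlapped too, Pfkp at 0.93 (SE 0.44) and Pfkm at -0.0048 (SE 0.64).

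The kinases that set the flux did not move as a group in GATA2-GMP. Beside Pdk1, Pfkfb3 and Pfkfb4, which make and break the allosteric activator of phosphofructokinase, had log2 fold changes of -0.12 (SE 0.24) and -0.15 (SE 0.39), with overlapping libraries. Hif1a, the gene of HIF-1 alpha, had 175, 166 and 162 CPM in GATA2-GMP KO against 213, 198 and 157 CPM in GATA2-GMP WT, which overlapped (-0.17, SE 0.21). HIF-1 alpha is set mainly through its protein, which was not measured. Its prolyl hydroxylases Egln1 and Egln3, themselves HIF targets, did not overlap between genotypes. Egln3 had 34.3, 16.1 and 50.3 CPM in GATA2-GMP KO against 11.6, 11.7 and 7.23 CPM in GATA2-GMP WT (1.72, SE 0.41), and Egln1 had 51.1, 35.3 and 57.0 CPM in GATA2-GMP KO against 20.1, 22.5 and 31.5 CPM in GATA2-GMP WT (0.96, SE 0.27).

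All 13 other HIF targets had a positive log2 fold change in GATA2-GMP, from 0.083 for the Myc antagonist Mxi1 to 3.25 for Ankrd37, with a median of 1.39, and in 9 of them the genotypes did not overlap. Ankrd37, which encodes an ankyrin repeat protein, lies at chr8:47082256-47085221 of mm9. It had 32.4, 18.2 and 68.8 CPM in GATA2-GMP KO, 4.10, 5.77 and 2.68 CPM in GATA2-GMP WT, 0.464, 0.827 and 0.448 CPM in GMP KO and 0.555, 0.239 and 0.450 CPM in GMP WT. Both GMP groups were near the floor, with 54 reads in all 3 GMP KO libraries and 28 in all 3 GMP WT libraries. Ethe1 encodes a mitochondrial sulfur dioxygenase and lies at chr7:25372562-25393944. Its levels were 77.7, 72.8 and 68.5 CPM in GATA2-GMP KO, 28.0, 25.2 and 21.6 CPM in GATA2-GMP WT, 42.9, 43.0 and 40.9 CPM in GMP KO and 39.4, 40.4 and 31.7 CPM in GMP WT. The GATA2-GMP KO values were the tightest of the 5 called genes, and the log2 fold change was 1.55 (SE 0.21). P4ha1 and P4ha2, subunits of the hydroxylase that modifies collagen, had log2 fold changes of 1.39 (SE 0.32) and 2.33 (SE 0.64). Ndrg1, a gene induced by several stresses, was not called, with 1.68 (SE 0.29). Smaller values without overlap were found for the growth factor gene Vegfa (0.56, SE 0.22), the histone demethylase gene Kdm3a (0.60, SE 0.20) and Bnip3l (0.91, SE 0.27), a mitophagy receptor related to Bnip3. Overlapping genotypes were found for Ddit4, an inhibitor of the growth kinase mTOR (1.46, SE 0.57), the mitochondrial protein gene Higd1a (0.17, SE 0.31), Mxi1 (0.083, SE 0.23) and the repressor gene Bhlhe40 (0.30, SE 0.31).

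The 3 GATA2-GMP KO libraries did not share the pattern equally. Of the 23 genes whose genotypes did not overlap in GATA2-GMP, the lowest KO value was in GATA2-GMP KO 2 for 19, in GATA2-GMP KO 3 for 3 and in GATA2-GMP KO 1 for 1. The highest was in GATA2-GMP KO 3 for 14 and in GATA2-GMP KO 1 for 9. All 37 genes together took 1.33, 1.12 and 1.23% of all counts in GATA2-GMP KO against 0.581, 0.623 and 0.765% in GATA2-GMP WT, and 0.501, 0.474 and 0.482% in GMP KO against 0.465, 0.447 and 0.435% in GMP WT. These shares, like those of the transporters and enzymes above, are of raw counts, without the TMM scaling of the CPM. Both the shares and the CPM leave out reads with more than 1 alignment. In CPM the sums were 15210, 13130 and 16460 in GATA2-GMP KO against 8440, 8645 and 10050 in GATA2-GMP WT. They were 3909, 3665 and 3548 in GMP KO against 3639, 3441 and 3394 in GMP WT, so the size of each difference depends on the scale.

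Cell type markers differed along with these genes. The 10 eosinophil markers summed to 56400, 68500 and 60400 CPM in GATA2-GMP KO and to 207000, 136000 and 167000 CPM in GATA2-GMP WT, with none at 0 in either group. Every KO library was below every WT library for 9 of the 10, and 2 were called lower (Ear1 and Ear2, with edgeR's adjusted p = 0.00899 for each). Over all genes, 12.3% were so placed and 0.274% were called lower. The fits without GATA2-GMP KO 1 or without GATA2-GMP KO 3 called no gene, these 2 included. The marker lists were chosen with earlier results known, so this is a description. The monocyte and macrophage markers summed to 2720 to 4950 CPM in GATA2-GMP KO and 3860 to 8190 CPM in GATA2-GMP WT, neutrophil markers to 39000 to 63600 CPM in GATA2-GMP KO and 44300 to 75300 CPM in GATA2-GMP WT, and mast cell and basophil markers to 8480 to 13900 CPM in GATA2-GMP KO and 4890 to 13900 CPM in GATA2-GMP WT. These sums overlapped between the genotypes. Single genes carried much of them, such as Ly6c2 with 7780 of 8190 CPM and Ngp with 53500 of 75300 CPM in GATA2-GMP WT 1. Gene by gene, all KO libraries stood above WT for 2 of 8 tested monocyte and macrophage markers. They did so for 1 of 12 neutrophil and 1 of 11 mast cell and basophil markers, and below for none. The fold change was positive in 6, 7 and 9 genes of these lists. None of them was called, and 10.2% of all genes stood above. Erythroid markers summed to at most 694, megakaryocyte markers to at most 64.0 and lymphoid markers to at most 88.7 CPM in any library. Of the 694 CPM, in GATA2-GMP WT 3, 685 were from Tfrc. Of 6 megakaryocyte markers tested, KO stood above WT in 1 and below in 3, and none was called. In bulk RNA, fewer cells of a type and less RNA per cell cannot be told apart, and the part of the eosinophil markers in the values of the glycolysis and hypoxia genes was not tested.

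In GMP edgeR called none of these genes between the genotypes. Of the 37 genes, 34 were tested (Gapdh, Eno2 and P4ha2 were below the filter), 7 were higher and 2 lower at an unadjusted p under 0.05 (6.78% and 7.69% of all genes), and DESeq2 called 1 higher, Mxi1 (1.02% of all genes higher, 3.03% lower). Over all genes, 0.658% were called higher and 2.52% lower (3.17% in either direction). Log2 fold changes ran from -0.25 to 0.58 with a median of 0.060, beside 0.0058 for all genes. All 3 KO libraries were above WT for 8 genes (Hk1, Pfkp, Aldoa, Slc16a3, Egln3, Vegfa, Mxi1 and Ethe1) and below for Slc2a3, where 11.3% and 8.09% of all genes were so placed. With the replicate number as a block, which pairs the GMP libraries, 5 were called higher in KO: Slc16a3 (log2 0.41), Bhlhe40 (0.55), Vegfa (0.30), Mxi1 (0.28) and Aldoa (0.16). That fit called 3.3% of all genes higher and 4.73% lower. Without GMP KO 2 the unblocked fit called Slc16a3, Bhlhe40, Vegfa and Mxi1, with 370 genes in all. Mxi1 had 63.3, 54.8 and 59.6 CPM in GMP KO against 49.2, 47.1 and 47.9 CPM in GMP WT, and Slc16a3 had 21.2, 16.0 and 18.1 CPM in GMP KO against 14.3, 12.8 and 13.9 CPM in GMP WT. Among the 5 genes called in GATA2-GMP, the GMP log2 fold changes were 0.22 (SE 0.094) for Slc2a1, -0.070 (SE 0.051) for Pdk1, -0.039 (SE 0.16) for Bnip3, 0.58 (SE 0.40) for Ankrd37 and 0.17 (SE 0.082) for Ethe1.

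The genotype effect in GATA2-GMP minus that in GMP was tested as an interaction over all 12 libraries and is again a description here. Of 36 genes, 3 were called, all in the direction of a higher difference in GATA2-GMP: Pdk1 at a log2 of 2.10 (SE 0.28), Slc2a1 at 1.47 (SE 0.23) and Ethe1 at 1.37 (SE 0.21). Over all genes, 0.0312% were called in this direction and 0.0547% in the other, 0.0859% in all. Bnip3 had the largest difference, 2.99 (SE 0.58), and was not called. The count of 3 was 0 without GATA2-GMP KO 1 or without any 1 of the 6 GMP libraries, was 5 without GATA2-GMP KO 2 and 2 without GATA2-GMP WT 1, 4 without GATA2-GMP WT 2 or without GATA2-GMP KO 3, and 13 without GATA2-GMP WT 3. Over all genes the fits with a count of 0 called at most 2, those without GATA2-GMP KO 2 and GATA2-GMP WT 1 called 25 and 10, those without GATA2-GMP WT 2 and GATA2-GMP KO 3 called 127 and 28, and the fit without GATA2-GMP WT 3 called 1179, against 11 with every library.

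Between the stages, wild type cells gave a contrast that had not picked the genes, although its libraries are shared with the 2 genotype comparisons. The values of Slc2a1, Pdk1 and Bnip3 in GATA2-GMP WT and in GMP WT had entered the choice, so their stage differences are given without p-values. With GATA2-GMP WT against GMP WT, 35 genes passed the filter (Eno2 and P4ha2 did not), and of the 32 besides those 3 genes, 17 rose, 12 fell and 3 did not pass (Pfkm, Tpi1 and P4ha1). The background was wide: 34.1% of all genes rose and 36.4% fell, 70.5% in all. Of the 37, 18 of those tested had every GATA2-GMP WT library above GMP WT and 14 had every one below, as had 35.8% and 41.4% of all genes. The genes' median log2 fold change was 0.70, beside -0.0925 over all genes, a value that moved to -0.28 with upper-quartile scaling and to 0.21 without the filter. Slc2a1, Pdk1 and Bnip3 are included in the counts of 18 and 14 and in the median of 0.70, which are descriptions.

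The glucose transporter Slc2a3 rose with stage (3.83, SE 0.37, adjusted p = 5.6e-05, on the log2 scale by edgeR, as for the values that follow). Slc2a1 had a log2 fold change of 1.02 (SE 0.15), and neither gene overlapped between the stages. Slc16a3 passed (0.73, SE 0.28, adjusted p = 0.0447), and its call was lost with upper-quartile scaling, without the filter, and without any 1 of 5 libraries (GMP WT 1, GMP WT 2, GMP WT 3, GATA2-GMP WT 1 and GATA2-GMP WT 2), where the adjusted p was 0.0566 to 0.133 over these settings. Of the 14 enzymes tested, 8 rose and 4 fell. Aldoc, the brain form of aldolase, rose the most after Gapdh, with 10.7, 11.8 and 18.1 CPM in GATA2-GMP WT against 0.555, 0.479 and 0.450 CPM in GMP WT (4.76, SE 0.33, adjusted p = 1.35e-05). Aldoa, at a far higher level, rose too, with 2712, 2955 and 3306 CPM in GATA2-GMP WT against 505, 487 and 460.2 CPM in GMP WT (2.64, SE 0.19, adjusted p = 1.38e-05). Ldha rose (2.06, SE 0.18, adjusted p = 2.94e-05), Pgk1 (1.20, SE 0.17, adjusted p = 0.000341), Hk2 (1.07, SE 0.19, adjusted p = 0.00124) and Gpi1 (1.01, SE 0.20, adjusted p = 0.00212). Pfkl fell to 18.6, 22.5 and 17.8 CPM in GATA2-GMP WT, against 149, 147 and 143 CPM in GMP WT (-2.89, SE 0.16, adjusted p = 5.67e-06). The fall was shared by Hk1 (-2.05, SE 0.16, adjusted p = 1.86e-05), Pgam1 (-1.19, SE 0.21, adjusted p = 0.00131) and Eno1 (-2.50, SE 0.53, adjusted p = 0.00322). Pfkp passed (1.08, SE 0.40, adjusted p = 0.0423), although its libraries overlapped, and lost the call with upper-quartile scaling and without GMP WT 1, GMP WT 2, GMP WT 3 or GATA2-GMP WT 2, where the adjusted p was 0.0555 to 0.122. Pfkm was called lower, by a log2 of -1.91 with an adjusted p of 0.000999, once GATA2-GMP WT 3 was left out. Tpi1 was called higher without GATA2-GMP WT 3 (adjusted p = 0.00164), without GATA2-GMP WT 1 (adjusted p = 0.0499), with DESeq2 size factors (adjusted p = 0.0346), by DESeq2 (adjusted p = 0.00769) and with all 12 libraries in 1 fit (adjusted p = 0.0438).

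Of the kinases, Pdk1 had the lowest log2 fold change of the 35 genes, -3.72 (SE 0.19), Pfkfb3 fell (-1.81, SE 0.20, adjusted p = 0.000107), and Pfkfb4 rose (1.58, SE 0.36, adjusted p = 0.0046). Of the hydroxylases, Egln3 fell (-2.65, SE 0.23, adjusted p = 3.19e-05) and Egln1 (-1.20, SE 0.20, adjusted p = 0.00108), while Hif1a rose (0.81, SE 0.17, adjusted p = 0.00268). Levels of Hif1a were 213, 198 and 157 CPM in GATA2-GMP WT against 112, 111 and 103 CPM in GMP WT.

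The other HIF targets went both ways with stage: of 11 tested besides Bnip3, 5 rose and 5 fell. Bhlhe40 had the highest log2 fold change of the 35 genes and rose, with 526, 466 and 998 CPM in GATA2-GMP WT against 5.04, 3.51 and 3.85 CPM in GMP WT (7.33, SE 0.41, adjusted p = 6.07e-06). In the KO groups it had 848, 792 and 804 CPM in GATA2-GMP KO and 7.97, 4.53 and 6.18 CPM in GMP KO. Bnip3 had a log2 fold change of 3.50 (SE 0.28). Ankrd37 rose (3.33, SE 0.47, adjusted p = 0.000407), as did Higd1a (2.20, SE 0.22, adjusted p = 7.46e-05) and Bnip3l (0.70, SE 0.16, adjusted p = 0.00489). Ddit4 fell (-2.25, SE 0.38, adjusted p = 0.000899), Vegfa (-1.48, SE 0.17, adjusted p = 0.000115) and Ndrg1 (-1.24, SE 0.26, adjusted p = 0.00288). Mxi1 (0.63, SE 0.19, adjusted p = 0.0175), Kdm3a (-0.49, SE 0.14, adjusted p = 0.0143) and Ethe1 (-0.57, SE 0.18, adjusted p = 0.0222) were nearer the threshold. Mxi1 lost its call with upper-quartile scaling and without GMP WT 1, GMP WT 2 or GMP WT 3 (adjusted p 0.0626 to 0.073), Kdm3a without GMP WT 1 or GMP WT 3 (0.0508 and 0.0748), and Ethe1 without GMP WT 1, GMP WT 2 or GATA2-GMP WT 2 (0.0623 to 0.0942). P4ha1 (-0.60, SE 0.24, adjusted p = 0.057) missed the threshold and was called lower without GATA2-GMP WT 2, with upper-quartile scaling, without the filter and with all 12 libraries in 1 fit (adjusted p 0.0245 to 0.0379).

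**Figure D3:**
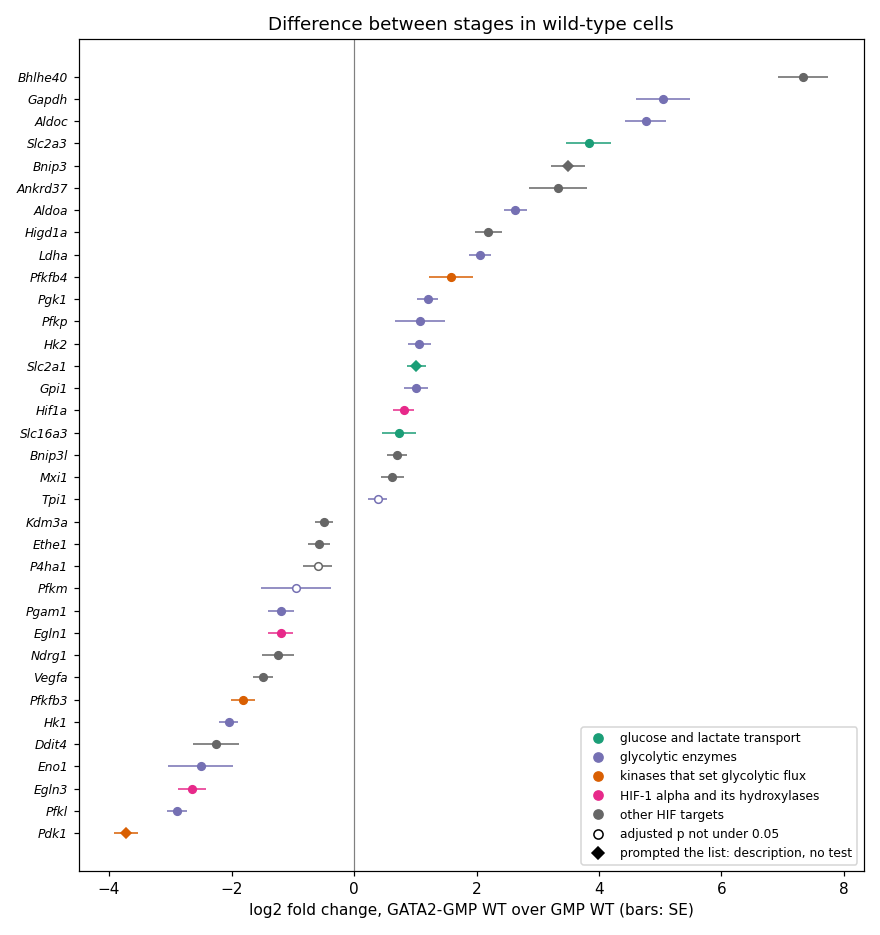
Log2 fold change of GATA2-GMP WT over GMP WT for each of the 35 genes that passed the filter, with bars of 1 SE, in order of value and coloured by role, open where the adjusted p was not under 0.05. Diamonds mark Slc2a1, Pdk1 and Bnip3, shown as a description, and of the 32 others 17 were called higher and 12 lower, from -2.89 for Pfkl to 7.33 for Bhlhe40.

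Set side by side over the 4 groups, the 23 genes whose GATA2-GMP genotypes did not overlap fell into a few arrangements. In 12 of them (Slc2a1, Slc2a3, Aldoa, Aldoc, Tpi1, Gapdh, Pgk1, Ldha, Bnip3, Bnip3l, Ankrd37 and P4ha2) each GATA2-GMP group was also above the GMP group of its genotype. In 7 (Pfkl, Pgam1, Eno1, Pdk1, Egln1, Egln3 and Vegfa) each GATA2-GMP group was below the GMP group of its genotype, so that the GATA2-GMP KO level lay between the GATA2-GMP WT and the GMP KO levels. P4ha1 and Ethe1 were below GMP in wild type cells and above GMP in KO cells. Ndrg1 and Kdm3a were below GMP in wild type cells and overlapped with GMP in KO cells. Among all 1198 genes tested in GATA2-GMP whose KO libraries stood above WT, 37.7% were above GMP in both genotypes, 23.5% below in both, 2.25% below in wild type and above in KO cells, and 12.4% below in wild type cells and overlapping in KO cells. The 23 genes were picked with the GATA2-GMP contrast in view, and nothing is read from these counts.

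Related genes with the same reaction were compared as CPM per kb of annotated exon, which allows for their lengths but not for the library kit or for reads lost to near copies. The length counts every annotated exon of a gene and can exceed its longest transcript. Slc2a3 exceeded Slc2a1 in GATA2-GMP, with 108 ± 18.3 against 51.4 ± 11.0 CPM per kb in GATA2-GMP KO and 37.7 ± 19.7 against 15.7 ± 0.59 in GATA2-GMP WT (SD, n = 3 each). In GMP the order was turned round, with 2.28 ± 0.23 for Slc2a3 and 9.25 ± 0.86 for Slc2a1 in GMP KO, and 2.66 ± 0.081 and 7.80 ± 0.55 in GMP WT. No libraries overlapped between these 2 transporters in any group. Hk2 exceeded Hk1 in GATA2-GMP, with 59.1 ± 19.2 against 6.36 ± 1.57 CPM per kb in GATA2-GMP KO and 43.2 ± 8.86 against 5.30 ± 0.67 in GATA2-GMP WT. In GMP the hexokinases lay closer together, with every Hk1 library above every Hk2 library of its group, at 20.95 ± 0.53 for Hk2 and 24.2 ± 2.18 for Hk1 in GMP KO and 20.8 for Hk2 and 22.1 for Hk1 in GMP WT. This closeness depends on the length used. Hk1 has 8532 bases of annotated exon and a longest transcript of 4278 bases, and Hk2 has 5969 and 5513. By transcript length Hk1 would stand further above Hk2 in GMP. Among the phosphofructokinase subunits Pfkp led in GATA2-GMP (50.1 ± 15.8 CPM per kb in GATA2-GMP KO, 26.5 ± 16.5 in GATA2-GMP WT) and Pfkl in GMP (34.1 ± 1.28 in GMP KO, 33.3 in GMP WT). Aldoa exceeded Aldoc in every library, by group means of 2082 against 9.48 CPM per kb in GATA2-GMP KO, 1086 against 4.14 in GATA2-GMP WT, 198 against 0.182 in GMP KO and 176 against 0.152 in GMP WT.

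Of the remaining families, the order of Pfkfb3 and Pfkfb4, of Egln1 and Egln3 and of Bnip3 and Bnip3l differed between groups, and that of P4ha1 and P4ha2 did not. Pfkfb4 stood above Pfkfb3 in GATA2-GMP KO (9.97 ± 3.28 against 5.10 ± 0.67 CPM per kb), where their libraries did not overlap, and by group means in GATA2-GMP WT (11.1 ± 5.68 against 5.54 ± 1.33), where they did, and below it in GMP KO (4.12 ± 0.71 against 19.7 ± 1.99). Egln3 overlapped with Egln1 in GATA2-GMP KO (12.6 ± 6.43 against 13.6 ± 3.19), stood below it in GATA2-GMP WT (3.83 ± 0.96 against 7.03 ± 1.70), and stood above it in GMP KO (25.5 ± 0.60 against 16.97 ± 0.24) and GMP WT (24.1 against 16.2). Bnip3 exceeded Bnip3l by group means in GATA2-GMP KO (195 ± 130.4 against 58.4 ± 20.0), where the lowest Bnip3 library stood below the highest Bnip3l library, and was the lower of the pair in GATA2-GMP WT (24.9 ± 7.36 against 31.1 ± 4.60), again with overlap, and in GMP KO (2.19 ± 0.17 against 18.6 ± 1.30). Near copies elsewhere cover 98.8% of the Bnip3 transcript and 39.6% of Bnip3l, and reads with more than 1 alignment were not counted. The order of this pair is therefore uncertain. P4ha1 exceeded P4ha2 in all 4 groups, at 21.4 ± 6.07 against 2.31 ± 0.70 in GATA2-GMP KO and 8.18 ± 2.54 against 0.454 ± 0.353 in GATA2-GMP WT. P4ha2 had 5 reads in all GMP KO libraries and 4 in all GMP WT libraries. Eno2 had 3 reads in GATA2-GMP KO, 0 in GATA2-GMP WT, 14 in GMP KO and 6 in GMP WT.

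**Figure D4:**
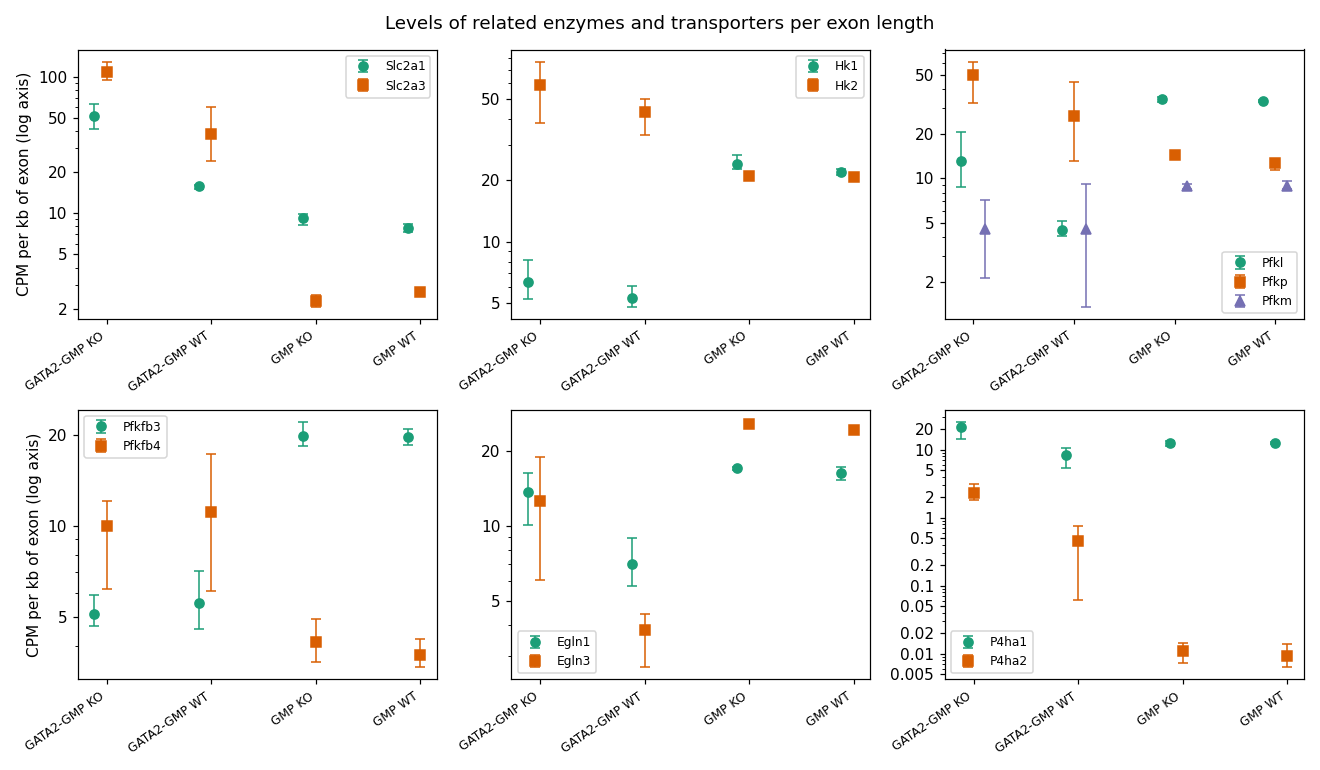
Group means in CPM per kb of exon on log axes for 6 families, with bars from the lowest to the highest of 3 libraries, for GATA2-GMP KO, GATA2-GMP WT, GMP KO and GMP WT from left to right. Slc2a3 is above Slc2a1 in both GATA2-GMP groups and below it in both GMP groups, and Pfkl and Pfkp change order in the same way.

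Several of these genes have near copies elsewhere in the genome, and reads with more than 1 alignment were counted to no gene. In a search of the longest transcripts against mm9, 98.8% of Bnip3 lay in stretches of at least 100 bases with at least 95% identity at 3 other loci, 95.7% of Pgk1 at 4, 94.7% of Pgam1 at 4, 88.6% of Gapdh at 47, 88.2% of Gpi1 at 1 and 85.6% of Eno1 at 4. Gapdh is reported as uncertain: it had 9.33, 8.70 and 11.7 CPM in GATA2-GMP KO, 5.49, 7.21 and 5.48 in GATA2-GMP WT, 0.143, 0.460 and 0.448 in GMP KO and 0.128, 0.120 and 0.300 in GMP WT, with 29 reads in all GMP KO libraries and 12 in all GMP WT libraries. Its stage difference in wild type cells (5.05, SE 0.44, adjusted p = 3.29e-05) rests on those 12 reads. Eno1 was at 2.96 CPM or less in every library and is uncertain for the same reason. Smaller shares were found for Tpi1 (54.0%), Bnip3l (39.6%), Egln1 (25.5%), Higd1a (24.7%) and Ldha (19.2%), and Slc2a1, Pdk1, Ankrd37 and Ethe1 had no such stretch. Exons of other genes on the opposite strand covered 28.9% of the Ankrd37 exon bases (Lrp2bp and Ufsp2), 15.6% of Slc16a3 (Csnk1d) and 6.67% of Ethe1 (Zfp575). The sources used here do not say whether counting used the strand, so reads of these genes and of their partners may not be told apart.

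**Figure D5:**
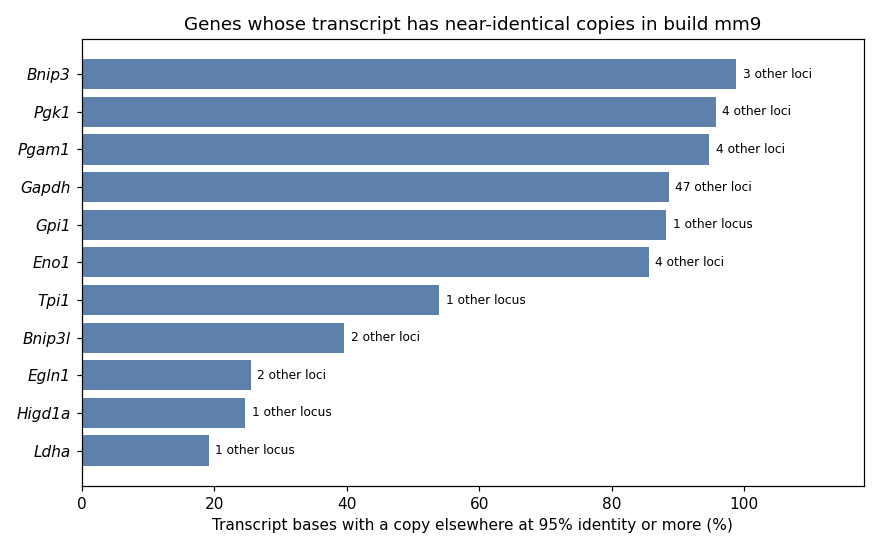
Share of the longest transcript of each gene, in percent, that lies at other genomic loci in stretches of at least 100 bases with at least 95% identity, for the genes that have any. Bnip3 leads with 98.8%, and Gapdh has the most loci, 47.

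Further genes of the same pathways were followed as lists. In GATA2-GMP no gene of these lists was called between the genotypes by edgeR: 0 of 16 other glycolysis genes (1 higher and 3 lower at an unadjusted p under 0.05, 1 higher and 1 lower by DESeq2), 0 of 27 other HIF pathway genes (10 higher and 2 lower unadjusted, 8 higher by DESeq2), 0 of 11 genes of pyruvate entry into mitochondria (2 lower unadjusted, 1 lower by DESeq2), 0 of 8 pentose phosphate genes (1 lower unadjusted, 1 lower by DESeq2) and 0 of 14 citrate cycle genes (none unadjusted, none by DESeq2). These counts stand beside the 6.59% higher and 8.31% lower of all genes at an unadjusted p under 0.05, and the 2.23% and 2.62% by DESeq2. The other HIF pathway genes had 23 positive and 4 negative fold changes with a median log2 of 0.58, beside -0.0049 for all genes, while the medians were -0.12 for other glycolysis genes and 0.13 for the citrate cycle. These lists too were chosen with earlier results of these data known, so their genotype values are a description and nothing is read from them. Without GATA2-GMP WT 3, 8 HIF pathway genes and 2 other glycolysis genes were called higher, in a fit that called 2.38% of all genes higher and 525 in all, against 44 with every library. In GMP, edgeR called Plod1, a collagen lysyl hydroxylase gene, lower in KO (log2 -0.47, SE 0.10, adjusted p = 0.0259) and Mpc2, a subunit of the mitochondrial pyruvate carrier, lower in KO (-0.59, SE 0.082, adjusted p = 0.00111). The Plod1 call was lost without GMP KO 2, GMP KO 3, GMP WT 1 or GMP WT 2.

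With stage in wild type cells, the other lists also split. Of 16 other glycolysis genes 5 rose and 7 fell, among them Slc2a6, a further glucose transporter gene (log2 3.20, SE 0.35, edgeR's adjusted p = 0.000105), and the lactate transporter gene Slc16a7 (-3.55, SE 0.33, adjusted p = 4.69e-05). Of 26 other HIF pathway genes 7 rose and 7 fell, with Hmox1, the heme oxygenase gene, at 5.05 (SE 0.75, adjusted p = 0.000505) and the adenylate kinase gene Ak4 at -4.55 (SE 0.52, adjusted p = 0.000136). Of 12 genes of pyruvate entry 5 rose and 5 fell, with the pyruvate carrier gene Mpc1 at 2.29 (SE 0.29, adjusted p = 0.000221) and Pdk2, a kinase related to Pdk1, at -5.16 (SE 0.66, adjusted p = 0.00023). Of 8 pentose phosphate genes 3 rose and 3 fell, with the first enzyme of the pathway, G6pdx, at 2.14 (SE 0.16, adjusted p = 1.77e-05) and the lactonase gene Pgls at -3.74 (SE 0.20, adjusted p = 4.73e-06). Of 14 citrate cycle genes 6 rose and 1 fell, with the malate dehydrogenase gene Mdh2 at 2.71 (SE 0.18, adjusted p = 1.06e-05); without GATA2-GMP WT 3 the counts were 9 and 4. These counts stand beside 34.1% of all genes rising and 36.4% falling.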

How the data were processed

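Whole-number counts of reads per gene symbol were used, 1 table per library, as the authors deposited them without normalization. The submitters' processing notes list HTSeq, DESeq, SAMtools 0.1.14 and STAR 2.3.0 beside build mm9, with no role for any; strand setting and annotation are not given in the sources used here. The 5 counter rows of each table, which held 55.8 to 66.5% of the records, were set aside, 23 gene names turned into dates were restored and 4 ambiguous ones left out. Totals were 8219366 to 33640911 counts, and no library repeated another.

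Genes were tested with edgeR 4.0.16 (filterByExpr, TMM, robust quasi-likelihood, R 4.3.3), with Benjamini-Hochberg adjustment across every gene that passed the filter and a threshold of 0.05, on the 6 libraries of each comparison or on 12 for the interaction. A standard error (SE) is the log2 fold change over the square root of F. CPM are scaled by TMM over all 12 libraries. The tests were checked on simulated counts with 200 changed genes. Alternatives were DESeq2 size factors, upper-quartile scaling, no filter, DESeq2 1.42.0, a replicate block, 1 fit of 12 libraries and each library left out. Same-numbered GMP libraries deviated together (r 0.36, 0.35 and 0.24), so their numbers were taken to pair them. Those of GATA2-GMP did not (-0.21, -0.41 and -0.59), nor did wild type libraries across the stages (0.033, 0.028 and 0.077). GATA2-GMP libraries of different numbers did: KO 1 and KO 2 with WT 3 (0.392 and 0.492), KO 3 with WT 1 and WT 2 (0.283 and 0.477). The remaining pairs had -0.3 and -0.223. Records in no gene were 14.2, 13.7 and 14.9% in KO 1, KO 2 and WT 3, against 11.2, 10.1 and 9.83% in KO 3, WT 1 and WT 2. What these libraries share was not tested. Promoters came from RefSeq (GRCm38.p6), gene positions from the mm9 annotation.

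The genes and lists were chosen with earlier results of these data known. Values in every library were given for Slc2a1, Pdk1, Bnip3 and the other genes of the main list past the threshold in a genotype comparison. For the 8 largest stage differences they were given at least in GATA2-GMP WT and GMP WT. Gene families were given mainly as group means per kb of exon. Of each further list, up to 4 called genes were named.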

Additional observations from a re-analysis of the deposited data

Results flagged for a closer look

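The genotype effect in GATA2-GMP minus that in GMP was called for 3 genes in the interaction test over all 12 libraries. Each had the higher difference in GATA2-GMP. Over all genes, 0.0312% were called in this direction and 0.0859% in all. The count of 3 fell to 0 without GATA2-GMP KO 1 or without any single GMP library. Pdk1 had a difference of 2.095 on the log2 scale, with all 3 GATA2-GMP KO libraries above GATA2-GMP WT and overlapping genotypes in GMP. Slc2a1 had a difference of 1.466 and Ethe1 of 1.367, with the GATA2-GMP genotypes apart for both. These differences chose or touch the choice of the genes, so they are descriptions. Slc2a3 was flagged because every KO library was above WT in GATA2-GMP and every KO library was below WT in GMP, with a difference of 1.737 that did not pass the threshold in the interaction test. In GMP its highest KO value was 18.27 CPM and its lowest WT value 18.58 CPM. Over all genes, 10.2% stood above in GATA2-GMP and 8.09% below in GMP.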

How the results depend on the processing

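In GATA2-GMP KO against WT, 5 genes were called; the count was 11 without the filter, 17 with DESeq2, 20 with all 12 libraries in 1 fit, 0 with the replicate block, and 0 to 13 with 1 library left out. Over all genes these fits called 44, 294, 568, 1461 and 3. Upper-quartile scaling called 4, losing Bnip3. In GMP KO against WT, none was called. The count was 1 with upper-quartile scaling, 2 without the filter and 1 with DESeq2, where 378, 460 and 487 genes were called in all. It was 5 with the replicate block (964 genes in all, against 381), and 0 to 4 with 1 library left out (209 to 398 genes in all). By the fit of 12 libraries 17 genes were called in all. For the interaction, 3 were called; the count was 14 with DESeq2 (821 genes in all, against 11), 0 with the replicate block, and 0 to 13 with 1 library left out. The numbers do not pair the GATA2-GMP libraries. With the replicate block, the log2 fold changes in GATA2-GMP KO against WT were 1.69 for Slc2a1, 2.02 for Pdk1 and 2.78 for Bnip3. They were 3.09 for Ankrd37 and 1.56 for Ethe1, and edgeR's adjusted p was 0.141 to 0.291 for these genes. Why the calls were lost under the block was not tested. In GATA2-GMP WT against GMP WT, the 32 calls, Slc2a1, Pdk1 and Bnip3 included, became 28 to 35 under all alternatives, 33 of them with the replicate block (Pfkm and P4ha1 gained, adjusted p = 0.0192 and 0.0356, Slc16a3 lost, 0.0542), and no fold change changed sign. These alternatives called 7621 to 9826 genes in all (51.4 to 78.8% of those tested), against 8638 (70.5%) in the main fit. The median of all genes there was -0.0925, -0.28 with upper-quartile scaling, 0.21 without the filter and -0.14 with the block. The cause of these changes was not tested. Low counts, under 60 reads in the 3 libraries of a group, limit the precision of P4ha2, Gapdh, Aldoc, Ankrd37 and Eno2 in GMP and of Eno1 and Eno2 in GATA2-GMP, and of Ddit4 in GATA2-GMP WT.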
